A study of Sus scrofa with 6 samples.

Results

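The genes examined here mark endothelial cells, which line blood vessels, in liver of newborn piglets. A list of 10 was set by name: PECAM1, ROBO4, STAB1, STAB2, CLEC14A, CDH5, TEK, TIE1, KDR and EGFL7. Of these, 8 could be matched to a row of the expression tables through Ensembl pig gene names, among 26733 features in all. STAB2 and CDH5 were not matched and are not analysed here, so the sinusoidal pair is represented by STAB1 alone, beside 7 pan-endothelial genes. Liver RNA came from Landrace x Yorkshire piglets whose sows differed in how dietary tryptophan was spread over the day. Sows of the 2×Trp group ate feed with 0.26% tryptophan at the morning and the afternoon meal. Those of the High-Low group received 0.39% at the first meal and 0.13% at the second. There were 3 libraries per diet, and by its title the series sought liver genes tied to harmful effects of tryptophan feeding. The labels do not say whether libraries came from separate animals, litters or pools, and every p-value therefore reflects sample-to-sample spread that may be technical.

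Vessels in the liver are of more than one kind. The portal and central veins and the hepatic artery have a continuous lining, whereas the sinusoids between hepatocyte plates have a fenestrated lining that takes up waste from blood through scavenger receptors. Stabilins are such receptors, and stabilin-1 is made by some tissue macrophages too. Growth and quiescence of the lining are governed by receptor tyrosine kinases, KDR for vascular endothelial growth factor and TEK with its relative TIE1 for the angiopoietins. PECAM1 and VE-cadherin, the product of CDH5, hold neighbouring cells together.

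The values, whose headers give no unit, were read as FPKM, fragments normalised to gene length and library size, and their read depth is unknown. Their totals ran from 956426 to 1230288 per library. Mitochondrial genes took 3.48% to 5.20% of the total in 2×Trp and 5.83% to 10.02% in High-Low, the highest in High-Low 1. The liver label was borne out by ALB, the albumin gene, at 9391 FPKM or more in every library. All 8 endothelial genes were above 0 in all 6 libraries and all passed the filter of 1 FPKM or more in at least 3 libraries, which left 10901 genes to test. Lengths listed in the tables are short for several genes, 318 for TIE1 against 3035 for CLEC14A, and the sources used here do not say how they were set. The order of levels between genes is therefore uncertain. As listed, EGFL7 had the highest mean over the 6 libraries, 65.8 ± 25.9 FPKM (SD, n = 6 throughout), followed by PECAM1 at 32.2 ± 9.34, CLEC14A at 19.5 ± 5.12 and STAB1 at 15.4 ± 4.91. Below them came KDR at 11.7 ± 3.66, TIE1 at 10.5 ± 3.05, TEK at 5.27 ± 0.74 and ROBO4 at 3.09 ± 1.501. The means of CLEC14A and STAB1 lay within an SD of each other, but CLEC14A had the higher listed value in all 6 libraries. KDR and TIE1 also lay within an SD, and their order changed between libraries. TIE1 was the higher in 2×Trp 1 and High-Low 2, and KDR in the rest.

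No endothelial gene differed between the diets past the threshold (limma, adjusted p under 0.05), yet all 8 had a lower fitted level in High-Low. Of all tested genes, 0.00917% passed in either direction. That was 1 gene, higher in High-Low, which had no matched symbol and so is on none of the gene lists used here. The share of tested genes with a negative log2 fold change was 50.5%. The endothelial genes' median log2 fold change (High-Low minus 2×Trp, on log2(FPKM + 1)) was -0.43, against -0.0038 for all tested genes. Without correction for the number of genes tested, 1 of the 8, ROBO4, was lower at a limma p under 0.05, as were 1.92% of all genes. Every High-Low library lay below every 2×Trp library for 2 of the 8, PECAM1 and ROBO4, and for 4.12% of all genes tested. The genes co-vary and came from the same libraries, so the 8 are not separate pieces of evidence. In bulk tissue, fewer endothelial cells and less RNA per cell cannot be told apart.

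**Figure D1:**
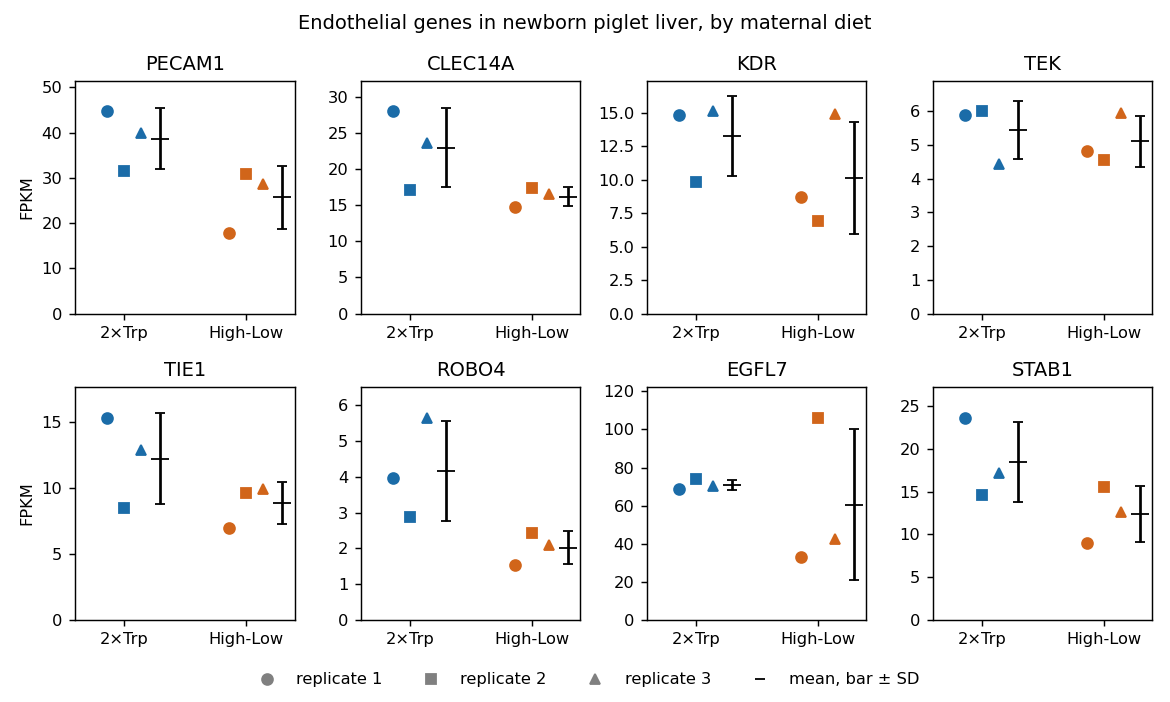
FPKM of the 8 matched endothelial genes in each library (symbols: replicate number; blue: 2×Trp, orange: High-Low; black: mean ± SD of 3 libraries). PECAM1 and ROBO4 do not overlap between diets, EGFL7 spreads from 33.1 to 106 FPKM in High-Low, and TEK stays between 4.45 and 5.995 FPKM.

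PECAM1 (ENSSSCG00000017277, chromosome 12, 14660875 to 14717153, susScr3, plus strand) encodes a homophilic adhesion molecule of endothelial junctions, which platelets and leukocytes carry as well. It had 44.7, 31.5 and 39.9 FPKM in 2×Trp 1, 2×Trp 2 and 2×Trp 3 and 17.8, 30.8 and 28.6 in High-Low 1, High-Low 2 and High-Low 3. The gap between the diets was narrow, with 2×Trp 2 and High-Low 2 lying side by side and High-Low 1 well below the rest. Its log2 fold change was -0.59 (SE 0.26, 95% interval -1.20 to 0.02, adjusted p = 0.998 in limma). An exact permutation test over the 20 assignments of libraries gave p = 0.1, two-sided, and no smaller value can be reached with 3 libraries against 3. Leaving out High-Low 1 brought the log2 fold change to -0.36.

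CLEC14A (ENSSSCG00000023760, chromosome 7, 66529031 to 66532065, plus strand) encodes a C-type lectin-like glycoprotein of endothelium that binds the matrix protein multimerin-2. Its listed length equals its genomic span, the pattern of a gene without introns. The libraries had 28.0, 17.1 and 23.6 FPKM in 2×Trp and 14.7, 17.3 and 16.5 in High-Low, in replicate order. High-Low 2 exceeded 2×Trp 2 slightly, so the diets overlapped, and the spread was wider in 2×Trp (SD 5.45) than in High-Low (SD 1.35). The log2 fold change was -0.45 (95% interval -0.98 to 0.07).

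ROBO4 (ENSSSCG00000015203, chromosome 9, 57598963 to 57613198, minus strand) encodes an endothelial roundabout receptor that stabilises vessels, and it had the lowest level of the 8. It had 3.97, 2.87 and 5.66 FPKM in 2×Trp and 1.53, 2.43 and 2.10 in High-Low. The diets did not overlap, and the highest library exceeded the lowest 3.69-fold. ROBO4 had the most negative log2 fold change of the 8, -0.75 (SE 0.26, 95% interval -1.37 to -0.13, adjusted p = 0.998 in limma). Because its level is low, the added 1 FPKM shrinks this value, which was -0.98 with a pseudocount of 0.1.

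Among the receptor kinases, TIE1 and TEK did not show the same profile although their proteins form complexes. TIE1 (ENSSSCG00000003950, chromosome 6, 155288383 to 155321728, plus strand) had 15.3, 8.49 and 12.8 FPKM in 2×Trp and 6.99, 9.61 and 9.93 in High-Low. In 2×Trp 2 it lay below High-Low 2 and High-Low 3, and the log2 fold change was -0.40 (95% interval -1.02 to 0.21). That value was -0.23 when 2×Trp 1 was left out, -0.26 when High-Low 1 was and -0.63 when 2×Trp 2 was. TEK (ENSSSCG00000005122, chromosome 1, 218224162 to 218500245, minus strand), the angiopoietin receptor TIE2, had 5.88, 5.995 and 4.45 FPKM in 2×Trp and 4.82, 4.55 and 5.95 in High-Low. It was the steadiest of the 8 genes, with 1.35-fold between its highest and lowest library. The diets overlapped throughout, at a log2 fold change of -0.07 (95% interval -0.57 to 0.42, exact permutation p = 0.9, two-sided), and leaving out single libraries gave -0.19 (2×Trp 3) to -0.0089 (High-Low 2). That interval leaves room for a difference of the size seen in TIE1. The ratio of TIE1 to TEK was 2.61, 1.42 and 2.89 in 2×Trp and 1.45, 2.11 and 1.67 in High-Low, with overlap between diets.

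KDR (ENSSSCG00000008844, chromosome 8, 43919343 to 43966974, minus strand), the main signalling receptor for vascular endothelial growth factor, had 14.8, 9.82 and 15.1 FPKM in 2×Trp and 8.71, 6.91 and 14.9 in High-Low. Unlike the genes above, it was lowest in High-Low 2, while High-Low 3 stood with the high 2×Trp libraries. Its log2 fold change was -0.39 (95% interval -1.12 to 0.33), which became -0.17 when High-Low 2 was left out and -0.68 when High-Low 3 was.

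EGFL7 (ENSSSCG00000005828, chromosome 1, 313727477 to 313737435, plus strand) encodes a secreted protein that endothelial cells lay down around growing vessels, and had the highest FPKM of the 8. The 2×Trp libraries were close together at 68.6, 73.9 and 70.4 FPKM. High-Low libraries had 33.1, 106 and 42.2, so that 2 lay below and 1 above every 2×Trp library. The SD was 2.70 in 2×Trp and 39.9 in High-Low. A log2 fold change of -0.41 (95% interval -1.36 to 0.54) averages over that split, and it was -0.90 when High-Low 2 was left out, -0.25 when High-Low 3 was and -0.08 when High-Low 1 was. The ratio of EGFL7 to KDR accordingly ran from 2.83 in High-Low 3 to 15.4 in High-Low 2, against 4.63 to 7.53 in 2×Trp.

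STAB1 (ENSSSCG00000011443, chromosome 13, 37846302 to 37873056, plus strand) is the sinusoidal member that could be measured. It had 23.7, 14.6 and 17.1 FPKM in 2×Trp and 8.99, 15.5 and 12.6 in High-Low, and High-Low 2 exceeded 2×Trp 2. The log2 fold change was -0.54 (SE 0.27, 95% interval -1.17 to 0.08, adjusted p = 0.998 in limma, exact permutation p = 0.2, two-sided). It was -0.35 when High-Low 1 was left out and -0.36 when 2×Trp 1 was. On the log2(FPKM + 1) scale STAB1 exceeded the mean of the 7 pan-endothelial genes by 0.40, 0.13 and 0.02 in 2×Trp and by -0.03, 0.25 and 0.01 in High-Low. These differences overlapped between the diets (0.18 ± 0.19 against 0.08 ± 0.15, SD, n = 3 each). The diet difference of STAB1 relative to the pan-endothelial genes was -0.11, smaller than the SD within either diet. Single libraries moved it: it was 0.0019 when 2×Trp 1 was left out, -0.05 for High-Low 1, -0.07 for High-Low 3, -0.13 for 2×Trp 2, -0.19 for 2×Trp 3 and -0.19 for High-Low 2. Against PECAM1 the ratio of STAB1 was nearly constant, from 0.43 to 0.53 over all 6 libraries. With STAB1 alone, no departure from the pan-endothelial genes between the diets was detectable.

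**Figure D2:**
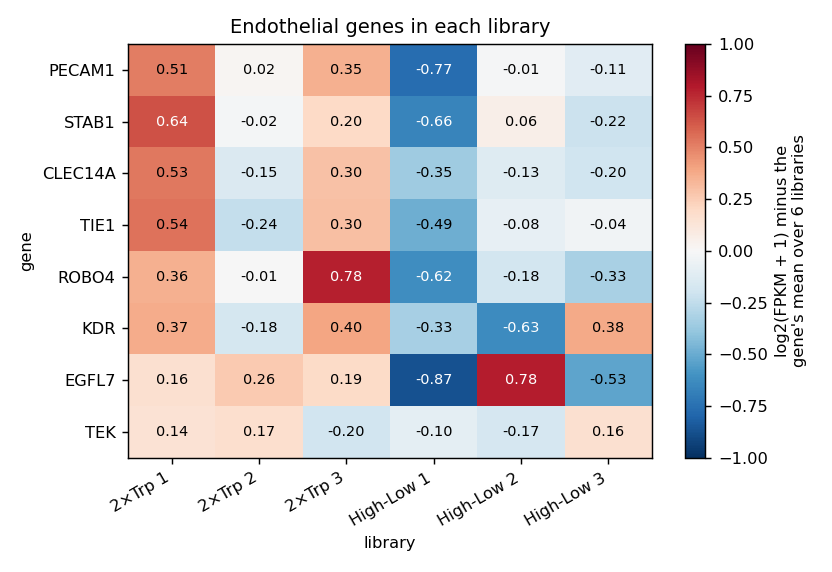
log2(FPKM + 1) of each gene in each library, minus the gene's mean over the 6 libraries (red: above, blue: below). High-Low 1 is low in every row, and the rows of KDR and EGFL7 go opposite ways in High-Low 2 and High-Low 3.

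The libraries of a diet differed among themselves. High-Low 1 was the lowest library for 6 of the 8 genes, all but KDR and TEK, with a mean of -0.52 relative to each gene's mean over libraries. High-Low 2 and High-Low 3 stood at -0.04 and -0.11, which is close to 2×Trp 2 at -0.02, and 2×Trp 1 and 2×Trp 3 stood at 0.41 and 0.29. The diets did not overlap in this mean, though 2×Trp 2 and High-Low 2 nearly met. They overlapped in the same mean over the 12 other pan-endothelial genes tested, given below.

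Co-variation over the 6 libraries was uneven: 25 of the 28 gene pairs had a positive Pearson r, with a median of 0.60 and a range of -0.24 to 0.96. PECAM1, STAB1, CLEC14A, TIE1 and ROBO4, grouped after their values were seen, had Pearson correlations of 0.78 to 0.96 in all 10 pairs. PECAM1 and STAB1 had r = 0.96 and Spearman's rho = 0.94 (exact permutation p = 0.0042 and 0.017; 0.062 and 0.12 after Benjamini-Hochberg adjustment over 28 pairs). Without the 2 libraries farthest from the PECAM1 median r was 0.87, and with each diet's mean removed it was 0.93. STAB1 and CLEC14A put the libraries in the same order (rho = 1, exact permutation p = 0.0028, adjusted 0.078; r = 0.91, exact permutation p = 0.0097, adjusted 0.062; r = 0.81 without the 2 farthest libraries). None of the 28 pairs passed an adjusted p under 0.05 in the exact permutation test. TEK had r of 0.11 with TIE1 and between -0.19 and 0.38 with the others. KDR and EGFL7 had r = -0.24 and rho = -0.26 (exact permutation p = 0.59 and 0.66, adjusted 0.75 and 0.80; r = -0.42 without the 2 farthest libraries). All genes share the same 6 libraries and their composition, so a correlation between any 2 of them includes whatever shifts a whole library.

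**Figure D3:**
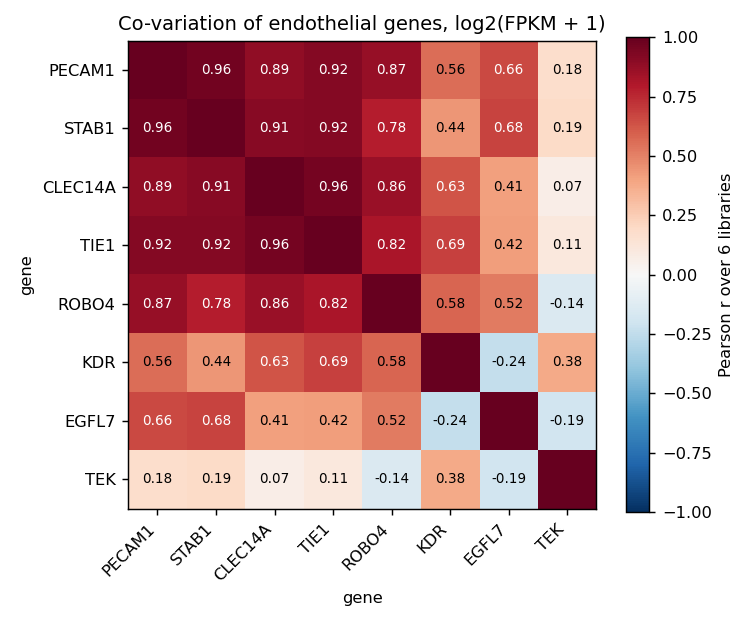
Pearson r of log2(FPKM + 1) over 6 libraries for each pair of endothelial genes (red: positive, blue: negative). PECAM1, STAB1, CLEC14A, TIE1 and ROBO4 form a block of 0.78 to 0.96, while TEK stays between -0.19 and 0.38.

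Ligands and partners of these receptors were measured too. Of 22 listed angiogenic ligands and co-receptors, 17 were matched and 11 tested, with 8 log2 fold changes below 0, 3 above 0 and a median of -0.16. None passed the threshold in limma, and 0 had an unadjusted p under 0.05. JAG1, a Notch ligand picked with its values in view, was the 1 of the 11 whose High-Low libraries all lay above the 2×Trp libraries (3.22, 3.61 and 3.58 FPKM against 3.02, 2.18 and 2.33), which held for 3.06% of all tested genes. VEGFA, the ligand of KDR, had 36.1, 17.7 and 23.6 FPKM in 2×Trp and 19.5, 27.2 and 20.6 in High-Low. The decoy receptor FLT1 lay near the filter, at 1.93, 1.11 and 1.76 FPKM in 2×Trp and 1.19, 0.94 and 1.47 in High-Low. Both angiopoietin genes were under 1 FPKM in all 6 libraries and were not tested. ANGPT1, the agonist of TEK, was listed at 0 in 2×Trp 1, 2×Trp 3 and High-Low 2, and reached at most 0.13 FPKM. ANGPT2, its antagonist in many settings, had 0.42 to 0.80 FPKM. PTPRB, the endothelial phosphatase that acts on TEK and VE-cadherin, had 2.82 ± 0.77 FPKM in 2×Trp against 2.39 ± 0.47 in High-Low (SD, n = 3 each, here and below), and MMRN2, the CLEC14A ligand, 0.96 ± 0.74 against 0.80 ± 0.26. UNC5B, a binding partner of ROBO4, had 1.68 ± 0.33 FPKM in 2×Trp and 1.83 ± 0.60 in High-Low, without the lower level of ROBO4 in High-Low libraries. The neuropilin NRP1, a co-receptor of KDR, had 6.42 ± 2.16 against 5.60 ± 1.55 FPKM.

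Other pan-endothelial genes leaned the same way and none passed. Of 25 listed, 15 were matched and 12 tested, with 11 log2 fold changes below 0 and a median of -0.28. Of all tested genes, 50.5% were below 0. Among the 12, the exception was S1PR1, a receptor for sphingosine-1-phosphate, at 0.23 (95% interval -1.19 to 1.65). The mean of the 12 relative to all libraries was 0.23, -0.18 and 0.32 in 2×Trp and -0.43, 0.13 and -0.08 in High-Low. High-Low 2 and High-Low 3 thus lay above 2×Trp 2, and High-Low 1 was lowest. ESAM, a junctional adhesion molecule, was the 1 gene of the 12 whose High-Low libraries all lay below the 2×Trp libraries, with 1.94, 2.32 and 2.05 FPKM against 3.04, 2.70 and 3.40; over all tested genes that share was 4.12%. ENG, a co-receptor for TGF-beta family ligands, had 73.8, 60.9 and 99.9 FPKM in 2×Trp and 44.6, 64.3 and 62.5 in High-Low. RAMP2, the partner of the adrenomedullin receptor, repeated the shape of EGFL7 in part: 2×Trp libraries were close at 109, 106 and 107 FPKM, and High-Low libraries had 53.5, 113 and 76.6. ERG, a transcription factor of endothelial identity, had 3.78 ± 0.95 FPKM in 2×Trp and 3.41 ± 0.66 in High-Low, at a log2 fold change of -0.11. S1PR1 and ESAM, like CTNNB1 below, were chosen after their values were seen.

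Sinusoidal genes beyond STAB1 gave a mixed picture. Of 20 listed, 11 were matched and 8 tested, with 6 log2 fold changes below 0, 2 above 0 and a median of -0.17. The 2 above 0, picked with their values in view, were GATA4 at 0.11 and RSPO3 at 0.27. OIT3, which liver sinusoidal cells express, had 58.2, 38.9 and 61.8 FPKM in 2×Trp and 29.2, 28.1 and 43.8 in High-Low. Its log2 fold change of -0.64 did not pass (95% interval -1.26 to -0.02, adjusted p = 0.998 in limma). Of the 8 tested, 1, OIT3, was lower at an unadjusted limma p under 0.05, as were 1.92% of all tested genes. The hyaluronan receptor LYVE1 had 9.35, 10.9 and 18.4 FPKM in 2×Trp and 9.31, 6.36 and 10.2 in High-Low. MRC1, the mannose receptor shared with macrophages, had 8.09, 10.1 and 18.6 against 12.1, 4.24 and 14.7 FPKM. Both were lowest in High-Low 2, as KDR was. BMP6, through which sinusoidal cells signal iron status to hepatocytes, had 89.3, 53.1 and 53.3 FPKM in 2×Trp and 34.1, 35.3 and 69.6 in High-Low. The lectin gene FCN2 ranged from 76.0 to 368 FPKM within 2×Trp alone. The ratio of STAB1 to LYVE1 ran from 0.93 to 2.53 in 2×Trp and 0.97 to 2.44 in High-Low, so these sinusoidal markers did not keep a fixed proportion.

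**Figure D4:**
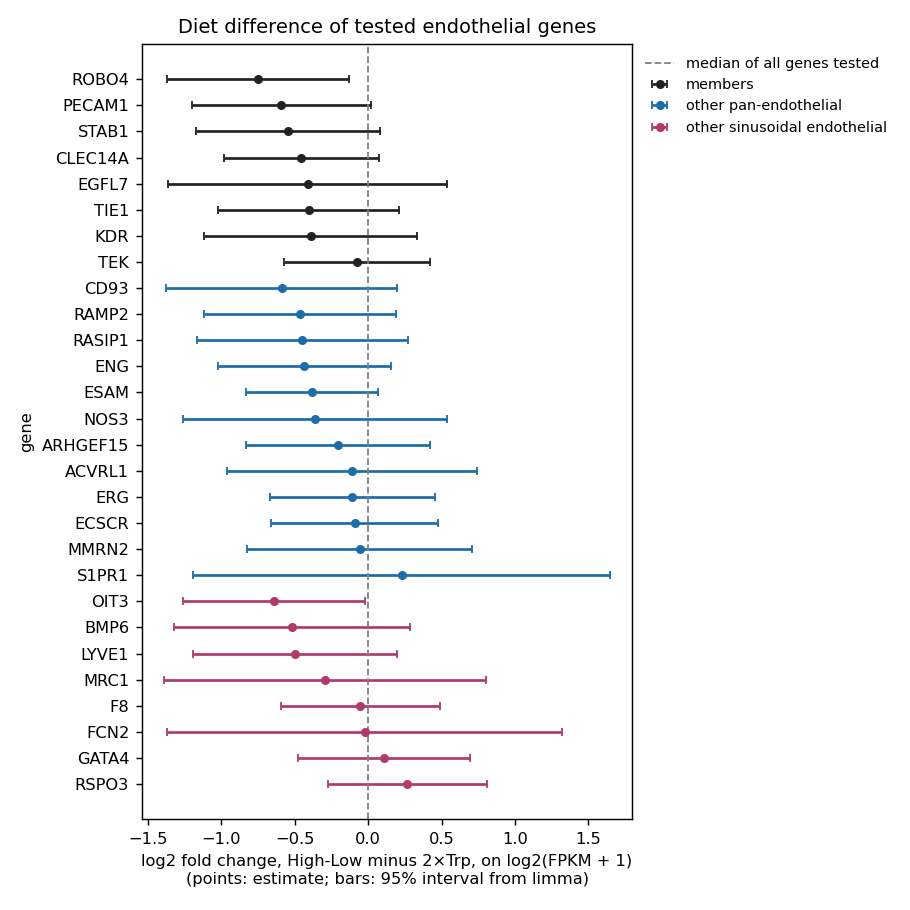
log2 fold change (High-Low minus 2×Trp, on log2(FPKM + 1)) of the tested endothelial genes, with 95% intervals from limma (black: the 8 genes described above, blue: other pan-endothelial, magenta: other sinusoidal; dashed: median of all genes tested). Most points lie left of 0, and all intervals but those of ROBO4 and OIT3 include 0, before adjustment.

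Junction partners and vessel-type genes had medians near 0. Of 13 junction genes listed, 12 were matched and 11 tested, with 6 below 0, 5 above 0 and a median of -0.02. CTNNA1, the alpha-catenin that links cadherins to actin, had 53.0 ± 8.79 FPKM in 2×Trp and 46.2 ± 7.56 in High-Low, and F11R, a tight junction molecule of many cell types, 38.2 ± 3.20 and 38.2 ± 10.3. CTNNB1, the beta-catenin of adherens junctions, lay above 2×Trp in every High-Low library, with 51.3, 34.6 and 41.1 FPKM against 32.7, 31.7 and 31.5. That held for 1 of the 11 and for 3.06% of all tested genes. ESAM, described above and also on this list, went the opposite way in every High-Low library, as did 4.12% of all tested genes. Many of these genes are expressed by hepatocytes as well. Of 15 arterial, venous and lymphatic genes, 11 were matched and 6 tested, with 4 below 0 and a median of -0.02. The venous receptor EPHB4 had 10.4 ± 2.06 and 9.75 ± 1.16 FPKM, and the venous transcription factor NR2F2 8.70 ± 0.26 and 7.83 ± 1.93. None of these genes passed the threshold in limma, and 0 in either list had an unadjusted p under 0.05.

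Markers of other cells that share these genes were set beside them. Platelet and megakaryocyte genes, of interest because platelets carry PECAM1, were near 0: 5 of 10 were matched, none passed the filter, GP1BB was listed at 0 in all 6 libraries, and the 5 summed to 1.06 to 2.23 FPKM in 2×Trp and 0.90 to 1.94 in High-Low. Macrophage genes were abundant, with 6 of 12 matched and tested, 5 of them below 0, 4 lower at an unadjusted p under 0.05 (1.92% of all tested genes) and none past the threshold in limma, and summed levels of 1468 to 2003 FPKM in 2×Trp and 1080 to 1670 in High-Low. The most abundant, CD14 and C1QA, had 1289 ± 206 and 418 ± 72.3 FPKM in 2×Trp against 1004 ± 232 and 267 ± 88.3 in High-Low. CSF1R, the receptor that sustains macrophages, picked with its values in view, had 18.1, 19.4 and 16.6 FPKM against 7.04, 9.91 and 12.5, without overlap. Every High-Low library lay below every 2×Trp library for 2 of the 6, CSF1R and TIMD4, and for 4.12% of all tested genes. MARCO went the other way, at a log2 fold change of 0.50. STAB1 did not keep a constant proportion to CSF1R. The ratio of STAB1 to CSF1R was 1.31, 0.75 and 1.03 in 2×Trp and 1.28, 1.57 and 1.01 in High-Low. How much of STAB1 came from macrophages was not tested. The macrophage mean relative to all libraries was -0.08, 0.36 and 0.39 in 2×Trp and -0.45, 0.06 and -0.28 in High-Low, in replicate order, and was lowest in High-Low 1, as STAB1 was.

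Mesenchymal, red cell and hepatocyte markers varied across the libraries too. Stellate and mesenchymal genes (13 of 15 matched, 11 tested, 7 below 0) had means of 0.32, -0.32 and 0.28 in 2×Trp and -0.41, -0.04 and 0.17 in High-Low, and summed to 173 to 278 and 163 to 261 FPKM. Erythroid genes (8 of 10 matched, 5 tested) were all below 0, as were 50.5% of all tested genes. Of the 5, 2 were lower at an unadjusted limma p under 0.05, as were 1.92% of all tested genes, and none passed the threshold. The erythroid means were 0.52, -0.03 and 0.85 in 2×Trp and -1.31, -0.04 and 0.01 in High-Low. Their sums ran from 6172 to 15894 FPKM in 2×Trp and from 1817 to 7200 in High-Low. Hepatocyte genes (11 of 12 matched and tested, 4 below 0) had a mean that ran the other way at the extremes. It was -0.34 in 2×Trp 1 and 0.39 in High-Low 1, where the endothelial mean was highest and lowest. APOB, at 22.6 FPKM in High-Low 1 and 1.37 to 3.82 in the other libraries, weighed on that 0.39. ALB rose from 9391 FPKM in 2×Trp 1 to 19600 in High-Low 1. APOA1, the most abundant, went with the endothelial genes, from 31095 to 16263 FPKM. The hepatocyte genes summed to 51332 to 66898 FPKM in 2×Trp and 47124 to 72174 in High-Low. Of 9 neutrophil genes, 7 were matched and 6 tested, all 6 above 0, as were 5391 of all 10901 tested genes. Neutrophil genes summed to 33.9 to 53.6 FPKM in 2×Trp. In High-Low 1, High-Low 2 and High-Low 3 the sums were 39.5, 157 and 47.5 FPKM, so only High-Low 2 lay outside the 2×Trp range. Of 10 lymphocyte genes, 7 were matched and 2 tested, both below 0, as were 50.5% of all tested genes. The 7 summed to 12.6 to 18.9 FPKM in 2×Trp and 8.28 to 11.8 in High-Low, without overlap. Of the 2 tested, 1, NKG7, was lower at an unadjusted limma p under 0.05 (1.92% of all tested genes). Every High-Low library of NKG7 also lay below every 2×Trp library (4.12% of all tested genes). Neither gene passed the threshold. Bile duct genes (5 of 7 matched, 4 tested, 1 below 0) summed to 118 to 215 and 98.5 to 321 FPKM. The part of these markers, and of the high mitochondrial share of High-Low 1, in the endothelial values was not tested. With libraries scaled to nuclear genes, the median log2 fold change of the 8 endothelial genes was -0.37, against -0.43 unscaled. All 8 stayed below 0 with that scaling.

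**Figure D5:**
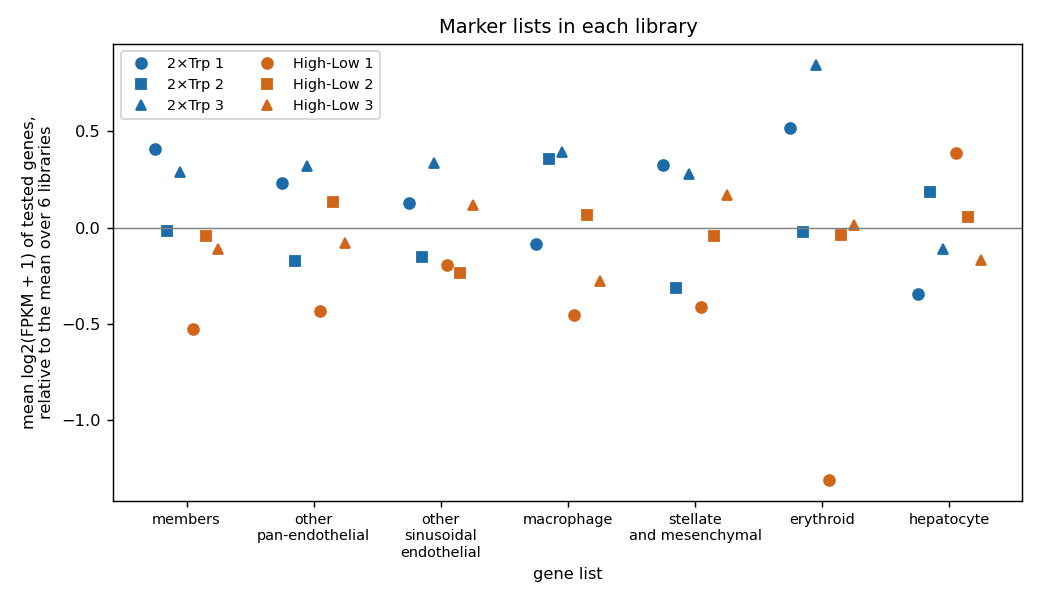
Mean log2(FPKM + 1) of the tested genes of each list in each library, relative to the mean over 6 libraries (blue: 2×Trp, orange: High-Low; symbols: replicate number; "members" are the 8 endothelial genes). Among the 7 lists plotted, High-Low 1 is highest for hepatocyte genes and lowest for the others, except that High-Low 2 is slightly lower for the other sinusoidal list.

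The genes with a profile most like the mean of the 8 endothelial genes were sought among 6532 tested genes with a symbol, leaving out all endothelial lists. The 5 with the highest Pearson r over the 6 libraries were ALAS2 (r = 0.999), G0S2 (0.991), BMP1 (0.991), HBB (0.986) and SORBS3 (0.983). Of these, ALAS2, which starts haem production in erythroid precursors, and HBB, a haemoglobin chain, belong to red blood cells. The other tested erythroid genes had lower r: HBM 0.87, SLC4A1 0.54 and TRIM10 0.10. ALAS2 had 64.8, 24.6 and 48.5 FPKM in 2×Trp and 8.02, 23.3 and 21.9 in High-Low, and HBB had 15745, 6094 and 15187 against 1793, 7122 and 4303. Of the 6532 genes, endothelial ones included, 135 had r of 0.9 or more. These r describe 6 shared libraries and carry no test.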

How the data were processed

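Liver RNA was extracted with Trizol and made into libraries with an Illumina TruSeq kit, per the labels' protocols. Tools listed in the submitters' processing notes are TopHat2 2.0.12, HTSeq 0.6.1 and Bowtie2 2.2.3, with genome build susScr3; the sources used here do not give the step that made the values, the annotation or the strand setting. The deposited values were read as FPKM, since they are not whole and library totals differ; depth and counting error are unknown. Groups and replicate numbers came from the sample titles. Ensembl identifiers were matched to symbols for 11804 of 26733 features, and 134 of 187 listed symbols were found. Genes reaching 1 FPKM in 3 libraries entered limma 3.58.1 as log2(FPKM + 1) (run in R 4.3.3 with mean trend and robust fitting), with Benjamini-Hochberg adjustment over 10901 genes and a threshold of 0.05; the step was tested on simulated data. Correlations used Python 3.11.15 and exact permutation over all pairings. The named genes were the 8 matched genes, a fixed set of 20 (12 found), the 2 tested genes of highest mean in each list (for most lists of other cells the sum is given instead) and the 5 closest profiles. The members and lists were chosen with earlier results of these data known, so no test over a list is given. Alternatives were other pseudocounts, filters, scalings, variance models, sample weights, a replicate block and leaving out each library. The labels do not say whether replicate numbers pair libraries, and the main fit did not use them. No sequences were at hand for these genes, and none are printed.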

Additional observations from a re-analysis of the deposited data

How the results depend on the processing

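All alternatives were planned. The 8 endothelial genes gave 135 refitted fold changes, of which 134 kept their sign and 0 passed the threshold (limma, adjusted p 0.24 to 1). The exception was TEK, at 0.12 with array quality weights (the cause was not tested). KDR was at -5.3e-05 under those weights. The median of the 8 ran from -0.63 to -0.33, and all 8 stayed below 0 except with array weights (7) and with a filter at 5 FPKM, which removed ROBO4 (7 of 7). Over all genes, 1 gene instead of 0 was called lower under 4 settings (quantile normalization, array weights, and scaling to nuclear genes or to total FPKM); leaving out single libraries gave 1 to 2 higher genes, 2 without 2×Trp replicate 3. With a replicate block the median was -0.43, with 1 gene higher and 0 lower. The deviations of same-numbered libraries from their diet means had correlations of -0.22, -0.01 and 0.03, so no pairing by number was seen. So few values cannot settle whether same-numbered libraries were related, and the labels do not say. Scalings moved the median of all genes by under 0.1. The FPKM carry no counts, so the precision of single values, low ones such as ROBO4 above all, is unknown.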
